A study of Bos grunniens with 18 samples.

Results

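The genes described here are 8 regulators of the naive T cell: the surface receptors CCR7, IL7R and S1PR1 and the nuclear factors LEF1, TCF7, BACH2, FOXP1 and SATB1. They were chosen by gene name from the deposited table of 20607 genes measured in yak whole blood. Of the 8 names, 7 had a row in the table, and SATB1 is not analysed here. All 7 passed the filter on low counts, together with 14508 genes in all, and the lowest count of any of them in any library was 641.

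The study followed adult female yaks (Bos grunniens, the domestic yak) aged 4 to 8 years over 3 reproductive stages and asked how blood transcripts differ between them. Libraries of anestrus are named Y-A, those of estrus Y-E and those of pregnancy Y-P. Blood of 6 cows was sequenced, giving 6 libraries per stage and 18 libraries of 30247267 to 48401076 counts. Estrus was brought about with a progesterone pessary, the prostaglandin analogue cloprostenol and GnRH, and insemination followed at a set time, so that Y-E is a hormone-synchronised estrus and Y-P follows it. The blood went into EDTA tubes and TRIzol LS without separation of its cells.

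A naive T cell is a mature T cell that has not yet met its antigen. CCR7 guides it into lymph nodes, IL7R carries the IL-7 survival signal, and S1PR1 lets it leave the node again along the sphingosine-1-phosphate gradient. TCF7 and LEF1 are closely related HMG-box factors of the T cell programme and of Wnt signalling, BACH2 is a repressor that holds back effector genes, and FOXP1 is a forkhead factor of quiescence. Several of these genes are also used elsewhere in blood, CCR7, BACH2 and FOXP1 by B cells among others. In whole blood, fewer cells of a type and less RNA per cell cannot be told apart.

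One library stood apart. Y-E replicate 6 had 8.36% of its counts in hemoglobin genes, where the other 5 Y-E libraries had 0.0899% to 0.713%, the Y-A libraries 3.10% to 16.7% and the Y-P libraries 0.0272% to 0.376%. The Y-P vs Y-E results of the 7 genes are therefore given with and without it. The chi-square per degree of freedom of the counts was 30.1 at its lowest over the 45 pairs of libraries of one stage and 82.1 over the 108 pairs of different stages, so no pair agreed within sampling noise. The methods describe samples tracked over the stages from 6 cows, so cows recur, but the labels do not tie replicate numbers to cows. The libraries were fitted as independent, so any pairing by cow is left out of the fit.

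In the names and coordinates of the table (Bos grunniens v101), CCR7 (ENSBGRG00000017039) lies at chr19:25488846-25499001 on the plus strand, IL7R (ENSBGRG00000016149) at chr23:44665617-44702724 on the plus strand, and S1PR1 (ENSBGRG00000009215) at chr3:29597264-29598043 on the plus strand. TCF7 (ENSBGRG00000001126) lies at chr8:49590656-49627245 on the plus strand, LEF1 (ENSBGRG00000006944) at chr6:110072715-110203525 on the minus strand, BACH2 (ENSBGRG00000026244) at chr10:29170649-29497451 on the minus strand, and FOXP1 (ENSBGRG00000019865) at chr22:33795918-34176896 on the minus strand. S1PR1 is annotated over 780 bases and BACH2 over 326803 bases. TCF7 lies wholly inside a gene of the opposite strand, ENSBGRG00000001048, and LEF1 shares 38704 bases with HADH on the opposite strand. The protocol in the labels marks strand, by removal of a uracil-labelled second strand, but whether the counting used it is not given in the sources used here, so reads of these partners could have been counted with TCF7 and LEF1. ENSBGRG00000001048 had log2 fold changes of -0.09 in Y-P vs Y-A and 0.18 in Y-P vs Y-E, neither passing the test (edgeR adjusted p = 0.875 and 0.687). HADH had 0.45 (edgeR adjusted p = 0.0374) and 0.32 (adjusted p = 0.083). Over the 18 libraries HADH held 876 to 2714 counts, beside 7175 to 21159 for LEF1. ENSBGRG00000001048 held 2928 to 10994, beside 4524 to 16466 for TCF7. The part of shared reads was not tested. The 2 annotations that overlap FOXP1 on the opposite strand held at most 15 counts in any library.

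Per length, the 7 genes were high in blood except for BACH2. On the FPKM scale (fragments scaled to exon length and to the mapped reads of the library, the authors' values), the mean level in Y-A was 126 ± 32.0 (SD, n = 6) for IL7R, 107 ± 20.4 for CCR7, 97.6 ± 11.5 for S1PR1, 84.8 ± 7.03 for LEF1, 70.5 ± 13.0 for TCF7, 38.2 ± 4.00 for FOXP1 and 5.84 ± 1.44 for BACH2. IL7R stood above 97.4% of all genes in the table and BACH2 above 61.4%. The neighbours IL7R and CCR7 did not differ beyond their spread, since IL7R was the higher of them in 4 of 6 Y-A libraries, 3 of 6 Y-E libraries and 4 of 6 Y-P libraries. TCF7 stood above FOXP1, and FOXP1 above BACH2, in all 18 libraries. The order was the same in Y-E. In Y-P it was IL7R at 212 ± 33.6 FPKM, CCR7 at 170 ± 25.2, LEF1 at 138 ± 21.1, TCF7 at 119 ± 19.7, S1PR1 at 117 ± 23.3, FOXP1 at 41.1 ± 3.33 and BACH2 at 7.13 ± 0.73, so that LEF1 and TCF7 passed S1PR1, although TCF7 was the higher of TCF7 and S1PR1 in only 4 of 6 Y-P libraries. The FPKM of S1PR1 rests on its short annotated span.

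The genes that passed the test did so in the comparisons with pregnancy. After TMM normalisation, which sets the bulk of genes level between libraries, LEF1, TCF7 and CCR7 rose in Y-P against both Y-A and Y-E, by 0.42 to 0.56 on the log2 scale, a direction that turned to values just below 0 when each library was scaled to its CD3 genes. IL7R had a like difference of 0.54 and 0.49 with a wider spread. It did not pass the test in the main fit. It did in both comparisons by library size alone, by limma on log2 FPKM and with the replicate number added to the model. By DESeq2 it passed in Y-P vs Y-A. S1PR1, BACH2 and FOXP1 did not pass the test either. None of the 7 reached the stricter threshold of an adjusted p under 0.05 with a log2 fold change of at least 1 in either direction. Of all tested genes, 0.0138% reached it in Y-E vs Y-A, 1.43% in Y-P vs Y-A and 2.67% in Y-P vs Y-E. At an adjusted p under 0.05 alone, the share of all tested genes that were higher was 2.22% in Y-P vs Y-A and 5.77% in Y-P vs Y-E, and the share that were lower was 3.61% and 8.68%. Of the 7 genes described here, 3 were higher and 0 lower in each of these comparisons, which share the 6 Y-P libraries. Without Y-E replicate 6 the counts were 3 higher in Y-P vs Y-A and 2 higher in Y-P vs Y-E, the latter being LEF1 and IL7R, beside 2.25% and 5.66% of all genes tested. Adjusted p-values are from edgeR's quasi-likelihood test with Benjamini-Hochberg adjustment over all 14508 tested genes. They rate each difference against the spread between these libraries, which were fitted as independent.

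**Figure D1:**
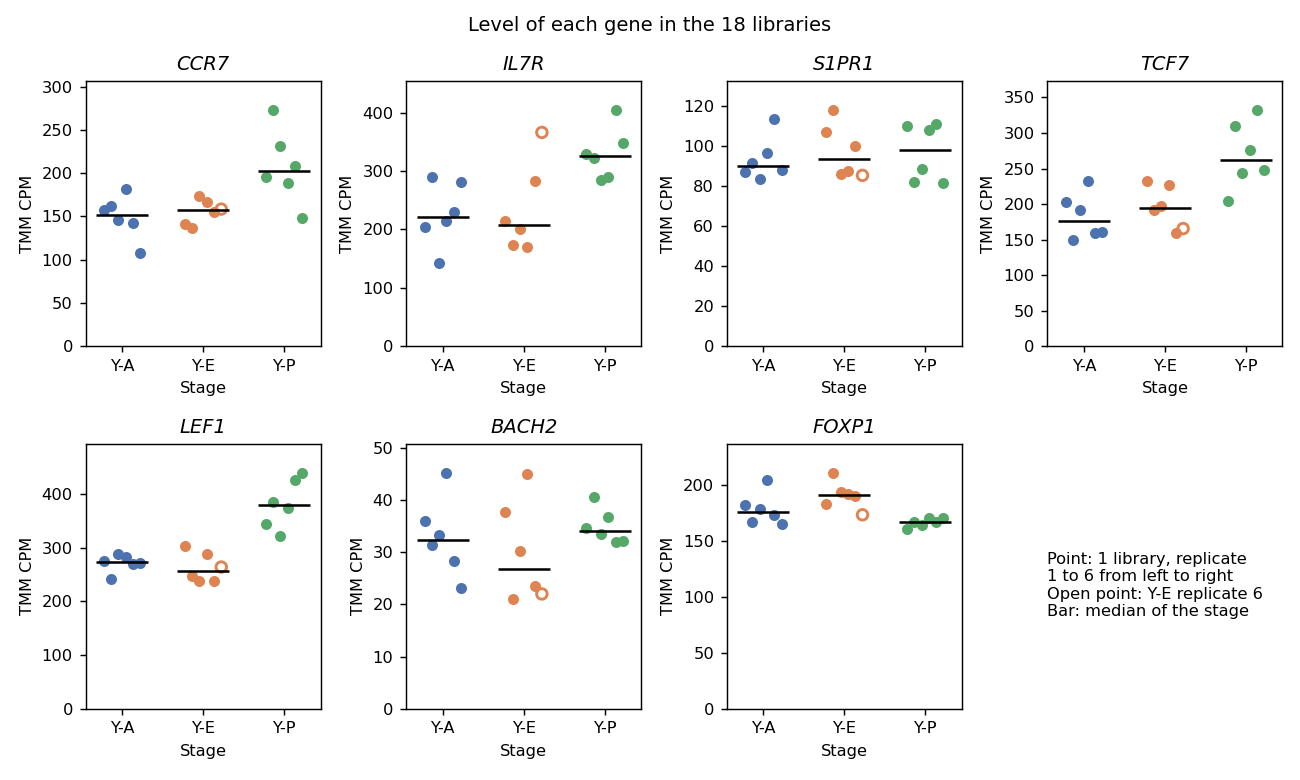
Level of the 7 genes as CPM, counts scaled to a common library size after TMM normalisation (vertical axis from 0) in each of the 18 libraries, by stage, with the stage median as a bar and Y-E replicate 6 as an open point. On this scale all 6 Y-P points of LEF1 lie above every Y-A and Y-E point, TCF7, CCR7 and IL7R overlap between stages, and the 6 Y-P points of FOXP1 lie close together between 160 and 170.

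Among the receptors, CCR7 is the lymph node homing receptor for the chemokines CCL19 and CCL21. It was at 108, 152 and 182 CPM (lowest, median and highest library) in Y-A, at 136, 157 and 174 CPM in Y-E and at 149, 202 and 273 CPM in Y-P. Of the 6 Y-P libraries, 5 were above every Y-A and every Y-E library, and replicate 6 of Y-P, the lowest, fell among them. CCR7 rose in Y-P vs Y-A by a log2 fold change of 0.47 ± 0.13 (SE, edgeR adjusted p = 0.0445) and in Y-P vs Y-E by 0.42 ± 0.13 (adjusted p = 0.0422), with 5 of 6 Y-P libraries above the median of either other stage. Both calls lay close to the threshold. The first was kept in 4 of 18 fits that each left out one library, with adjusted p between 0.0207 and 0.125, and the second in 6 of 18, between 0.0145 and 0.104. Without Y-E replicate 6, the adjusted p of Y-P vs Y-E was 0.0584.

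IL7R, the alpha chain of the IL-7 receptor, was at 142, 222 and 291 CPM in Y-A, at 170, 208 and 366 CPM in Y-E and at 285, 326 and 404 CPM in Y-P. The highest Y-E value was that of replicate 6, and without it the Y-E range ended at 284 CPM, below the lowest Y-P library. Against Y-A, 4 of 6 Y-P libraries were above every Y-A library. The log2 fold change was 0.54 ± 0.19 in Y-P vs Y-A (edgeR adjusted p = 0.0937) and 0.49 ± 0.19 in Y-P vs Y-E (adjusted p = 0.0889). Without Y-E replicate 6 the second was 0.66 ± 0.17 and passed (adjusted p = 0.0166), while the first did not (adjusted p = 0.0543). All 6 Y-P libraries were above the median of Y-A and above that of Y-E. With the replicate number added to the model IL7R passed in both comparisons, but the labels do not tie that number to cows. It also passed in both by library size alone and by limma on log2 FPKM, and by DESeq2 in Y-P vs Y-A.

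S1PR1, the receptor of lymphocyte egress, was at 83.4, 90.0 and 114 CPM in Y-A, at 85.4, 93.8 and 118 CPM in Y-E and at 81.6, 98.3 and 111 CPM in Y-P. The 3 ranges nearly coincided, and the order of the libraries did not follow the stages. Its log2 fold change was 0.05 ± 0.11 in Y-P vs Y-A (edgeR adjusted p = 0.834) and -0.01 ± 0.11 in Y-P vs Y-E (adjusted p = 0.978), or -0.04 ± 0.12 without Y-E replicate 6 (adjusted p = 0.860).

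Among the transcription factors, LEF1 showed the clearest separation. It was at 242, 273 and 289 CPM in Y-A, at 239, 256 and 303 CPM in Y-E and at 322, 379 and 439 CPM in Y-P. The lowest Y-P library was above the highest library of both other stages, which held for 1.23% of all tested genes against Y-A and 2.19% against Y-E. LEF1 rose by 0.49 ± 0.10 in Y-P vs Y-A (edgeR adjusted p = 0.00777) and by 0.53 ± 0.10 in Y-P vs Y-E (adjusted p = 0.00162). Both calls were kept in all 18 fits that left out one library, with adjusted p of at most 0.0213 and 0.00605. Without Y-E replicate 6 the second was 0.54 ± 0.10 (edgeR adjusted p = 0.00285).

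TCF7, which encodes TCF-1, was at 149, 176 and 232 CPM in Y-A, at 160, 194 and 233 CPM in Y-E and at 205, 262 and 332 CPM in Y-P. Of the 6 Y-P libraries, 5 were above every library of Y-A and of Y-E, and Y-P replicate 1 was below the highest of each. TCF7 rose by 0.56 ± 0.14 in Y-P vs Y-A (edgeR adjusted p = 0.0259) and by 0.46 ± 0.14 in Y-P vs Y-E (adjusted p = 0.0313). The first call was lost without replicate 5 or 6 of Y-A or replicate 2 or 5 of Y-P, with adjusted p up to 0.0700. The second was lost without replicate 2, 3, 5 or 6 of Y-E or replicate 2, 4 or 5 of Y-P, with adjusted p up to 0.0794, and was at 0.42 ± 0.14 (adjusted p = 0.0627) without Y-E replicate 6.

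BACH2 was at 23.1, 32.4 and 45.1 CPM in Y-A, at 21.0, 26.9 and 45.0 CPM in Y-E and at 31.9, 34.1 and 40.6 CPM in Y-P. The Y-P libraries lay inside the range of the other stages and closer together, with a coefficient of variation of 9.46% against 22.7% in Y-A and 32.5% in Y-E. The log2 fold change was 0.09 ± 0.18 in Y-P vs Y-A (edgeR adjusted p = 0.823) and 0.23 ± 0.18 in Y-P vs Y-E (adjusted p = 0.454), or 0.15 ± 0.19 without Y-E replicate 6 (adjusted p = 0.655).

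FOXP1 was at 165, 176 and 204 CPM in Y-A, at 173, 190 and 210 CPM in Y-E and at 160, 167 and 170 CPM in Y-P. The highest Y-P library was below the lowest Y-E library, as for 3.84% of all tested genes. The log2 fold change of -0.19 ± 0.07 in Y-P vs Y-E did not pass (edgeR adjusted p = 0.0923), nor did -0.10 ± 0.07 in Y-P vs Y-A (adjusted p = 0.470). By DESeq2 the Y-P vs Y-E value was -0.20 with an adjusted p of 0.0235, and under library size scaling it was -0.05. Without Y-E replicate 6 it was -0.22 ± 0.08 (edgeR adjusted p = 0.0716).

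No difference between estrus and anestrus was detected in these genes. In Y-E vs Y-A the log2 fold changes ran from -0.14 ± 0.18 for BACH2 to 0.10 ± 0.14 for TCF7, with FOXP1 at 0.09 ± 0.07, and 0 of 7 passed (edgeR adjusted p from 0.997 to 0.999), as against 0.0207% of all tested genes. At an unadjusted p under 0.05 the count was 0 as well, and DESeq2 and limma on log2 FPKM also called 0. Leaving out Y-E replicate 6 left the count at 0. The ranges of all 7 genes overlapped between these stages, whereas 0.303% of all tested genes had ranges apart.

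**Figure D2:**
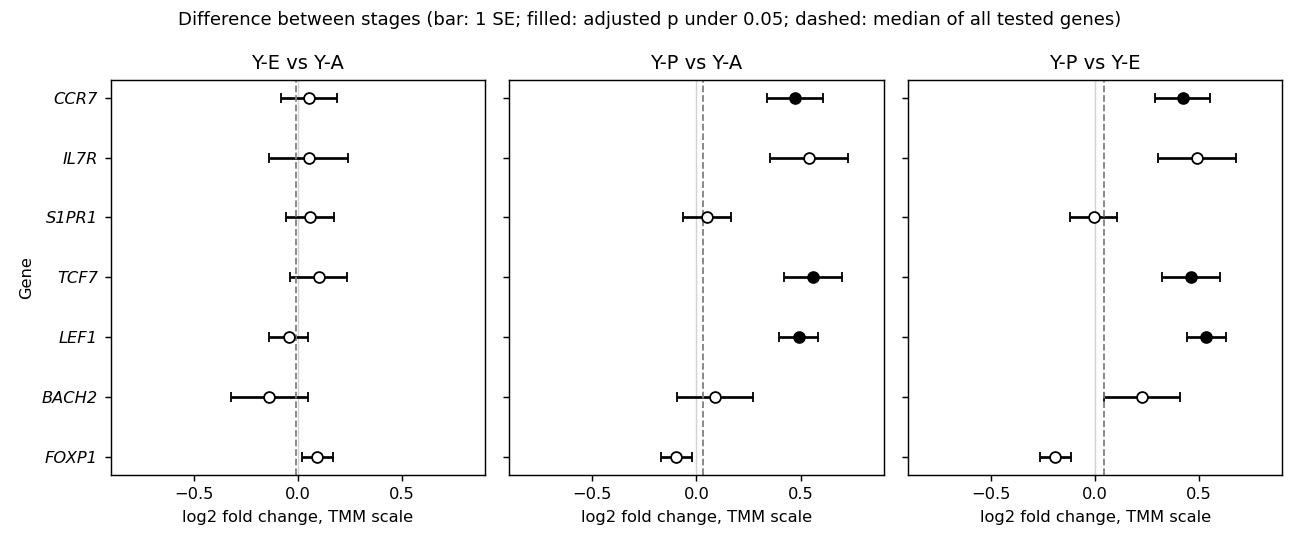
Log2 fold change on the TMM scale (horizontal axis) of the 7 genes in the 3 comparisons, with 1 standard error as a bar, a filled point where the adjusted p was under 0.05 and the median of all tested genes as a dashed line. In Y-E vs Y-A every point is open and near 0, and in both comparisons with Y-P the points of CCR7, LEF1 and TCF7 are filled at 0.42 to 0.56, values that lie below 0 on the CD3 scale.

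Because blood mixes cell types, the genes were also set beside CD3D and CD3G, chains of the CD3 complex carried by all T cells. CD3G, at 80.5, 117 and 133 CPM in Y-A and 143, 173 and 296 CPM in Y-P, rose by 0.73 ± 0.16 in Y-P vs Y-A (edgeR adjusted p = 0.0139) and by 0.88 ± 0.16 in Y-P vs Y-E (adjusted p = 0.00173). CD3D had 0.49 ± 0.16 and 0.42 ± 0.16 and did not pass (adjusted p = 0.0683 and 0.0766). With each library scaled to the geometric mean of both genes, the median of all tested genes moved to -0.52 in Y-P vs Y-A and -0.54 in Y-P vs Y-E. The sampling error of the 2 genes is not part of this fit.

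On that scale the differences of LEF1, TCF7, CCR7 and IL7R were near 0 or below. In Y-P vs Y-A the log2 fold change was -0.04 ± 0.16 for TCF7, -0.07 ± 0.16 for LEF1, -0.01 ± 0.22 for IL7R and -0.10 ± 0.17 for CCR7, and none passed (edgeR adjusted p from 0.644 to 0.980). In Y-P vs Y-E it was -0.15 ± 0.16 for TCF7, -0.05 ± 0.16 for LEF1, -0.11 ± 0.22 for IL7R and -0.19 ± 0.17 for CCR7 (adjusted p from 0.378 to 0.832). Each stood above the median of all genes on this scale, as with TMM, since a change of scale shifts all genes nearly alike. FOXP1 was lower at -0.65 ± 0.16 (adjusted p = 0.00555) and -0.77 ± 0.16 (adjusted p = 0.0012), and S1PR1 at -0.48 ± 0.17 (adjusted p = 0.0315) and -0.58 ± 0.17 (adjusted p = 0.0121). S1PR1 stood near the median of all genes on this scale, and FOXP1 stood below it. On this scale 38.7% and 39.4% of all tested genes were lower, and 0.117% and 0.11% higher.

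Per library, the level of LEF1 over the CD3 mean was 1.38, 1.73 and 2.05 (lowest, median and highest) in Y-A, 1.58, 1.64 and 1.92 in Y-E and 1.20, 1.63 and 2.15 in Y-P. The 3 medians were close, and the Y-P libraries spread over the range of the other stages and beyond both its ends. TCF7 was at 0.850, 1.14 and 1.51 in Y-A and 0.913, 1.18 and 1.33 in Y-P. S1PR1 was at 0.524, 0.576 and 0.651 in Y-A and at 0.310, 0.365 and 0.638 in Y-P, where replicate 1 was high and replicates 2, 3 and 5 were low. FOXP1 was at 0.952, 1.11 and 1.36 in Y-A, at 1.02, 1.26 and 1.35 in Y-E and at 0.470, 0.726 and 0.929 in Y-P, below both other stages without overlap, as for 11.4% of all tested genes against Y-A and 16.2% against Y-E.

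Scaling to the total count alone moved the other way. The median of all tested genes was then 0.19 in Y-P vs Y-A and 0.18 in Y-P vs Y-E, and 1075 genes were higher and 258 lower at an adjusted p under 0.05 in Y-P vs Y-A, against 322 and 524 with TMM (7.41% and 1.78% of all tested genes, against 2.22% and 3.61%). In Y-P vs Y-E the split was 1795 to 758, against 837 to 1259 (12.4% and 5.22%, against 5.77% and 8.68%). CCR7, IL7R, LEF1 and TCF7 all passed under it, at 0.62 to 0.72 and 0.56 to 0.67 on the log2 scale. FOXP1 changed sign in Y-P vs Y-A, to 0.07 ± 0.09. Over all the lists of related genes described next, 23 of 207 tested genes were higher and 12 lower in Y-P vs Y-A under this scaling, against 8 and 17 with TMM, and 28 and 28 in Y-P vs Y-E, against 13 and 37.

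**Figure D3:**
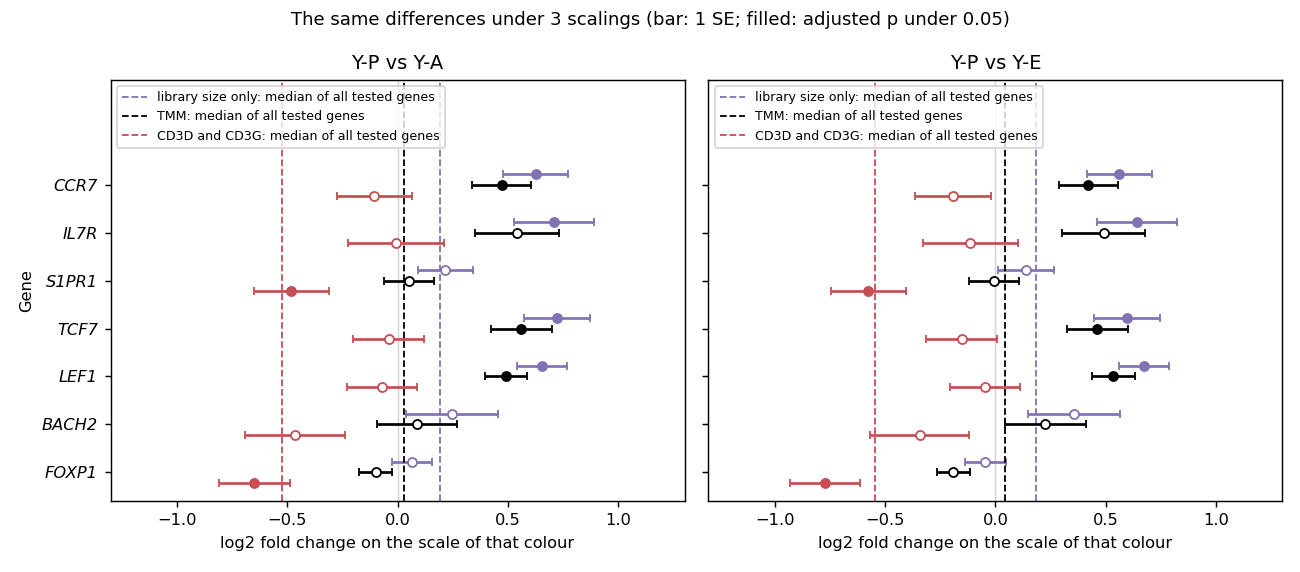
Log2 fold change (horizontal axis) of the 7 genes in Y-P vs Y-A and in Y-P vs Y-E with each library scaled by its total count (purple), by TMM (black) or by CD3D and CD3G (red), with 1 standard error as a bar, filled points where the adjusted p was under 0.05 and the median of all tested genes on each scale as a dashed line. The points of all genes move left from purple to red along with the dashed lines. On every scale CCR7, IL7R, TCF7 and LEF1 lie to the right of the median. A change of scale shifts all genes nearly alike, so these positions are not separate evidence.

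Genes shared by T cells in general were higher in Y-P as well. Of 12 tested genes of this kind (CD3 chains, CD4, proximal receptor signalling), all 12 had a positive log2 fold change in both comparisons with Y-P, with medians of 0.44 and 0.43 beside 0.03 and 0.04 over all tested genes. Of the 12, 5 rose in Y-P vs Y-A and 6 in Y-P vs Y-E, and 0 fell, beside 2.22% and 5.77% of all tested genes higher. On the CD3 scale, which is built on 2 of them, the medians were -0.14 and -0.21, beside -0.52 and -0.54 over all tested genes. There 0 rose and 1 fell in each, beside 38.7% and 39.4% of all tested genes lower. The genes that rose with TMM included the kinase ZAP70, which starts T cell receptor signalling, at 188 CPM (median) in Y-A and 290 in Y-P (0.46, edgeR adjusted p = 0.0285). The adaptor SKAP1 rose by 0.62 (adjusted p = 0.0164) and the surface inhibitor CD5 by 0.51 (adjusted p = 0.0198). Leaving out one library moved the first count between 2 and 8 (2 without Y-A replicate 1 and 8 without Y-P replicate 1, with 3 without replicates 4 or 6 of Y-A or 2, 4 or 5 of Y-P) and the second between 3 (without Y-P replicate 5) and 7. The summed level of the 12 genes was 1488 to 1795 CPM in Y-A, 1541 to 1837 in Y-E and 1740 to 2749 in Y-P.

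Of 22 further tested genes associated with naive T cells, 3 rose and 0 fell in each comparison with Y-P, beside 2.22% and 5.77% of all tested genes higher. Of the 22, 20 had a positive log2 fold change in Y-P vs Y-A and 16 in Y-P vs Y-E, with medians of 0.30 and 0.32. CD27, a costimulatory receptor of naive and early memory cells, was at a median of 81.7 CPM in anestrus and 134 CPM in pregnancy, and rose by 0.64 ± 0.17 (edgeR adjusted p = 0.0351) and by 0.70 ± 0.17 against Y-E (adjusted p = 0.0114). OXNAD1 rose by 0.54 (adjusted p = 0.0199) and 0.62 (adjusted p = 0.00368). CAMK4, a calcium and calmodulin dependent kinase, rose in Y-P vs Y-A by 0.60 (adjusted p = 0.0164), and RCAN3, of a family of calcineurin regulators, in Y-P vs Y-E by 0.37 (adjusted p = 0.0378). The count in Y-P vs Y-A was 1 without Y-A replicate 1, and CD27 passed there in 11 of 18 fits that left out one library. On the CD3 scale the medians turned to -0.31 and -0.29, above the medians of -0.52 and -0.54 over all tested genes. There 0 of the 22 were higher, and 4 and 6 were lower, beside 38.7% and 39.4% of all tested genes lower.

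Of 17 tested effector and memory genes, ZEB2, a factor of terminal effector cells that myeloid cells also express, was the one that passed. It was at 331, 431 and 494 CPM in Y-A, at 311, 372 and 456 CPM in Y-E and at 144, 205 and 273 CPM in Y-P, with no overlap. ZEB2 fell by 1.1 on the log2 scale in Y-P vs Y-A (edgeR adjusted p = 0.00108) and by 0.93 in Y-P vs Y-E (adjusted p = 0.000931). The median of the 17 was 0.13 and 0.23. Beside the counts of this list and the next, 3.61% and 8.68% of all tested genes were lower, and 2.22% and 5.77% higher. Of 15 tested T lineage factors, ZBTB7B (ThPOK), the CD4 lineage factor, fell in both comparisons, by 0.64 (adjusted p = 0.0418) and 1.09 (adjusted p = 0.000963), and against Y-E KLF7 fell by 0.44 (adjusted p = 0.00998) and ETS1 rose by 0.33 (adjusted p = 0.0353). Leaving out one library, ZBTB7B passed in 8 of 18 fits in Y-P vs Y-A, with adjusted p up to 0.0846, and in 18 of 18 in Y-P vs Y-E, and ETS1 passed in 9 of 18.

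Genes that work with the receptors were counted in the same way. Of 14 tested genes of CCR7-linked homing, 14 of IL-7 signalling and 13 of sphingosine-1-phosphate egress, 0 passed in Y-P vs Y-A by edgeR. In Y-P vs Y-E 2 of each list fell and 0 rose, beside 8.68% of all tested genes lower and 5.77% higher. The part of other blood cells in these falls was not tested. The integrin chain ITGAL fell by 0.52 (edgeR adjusted p = 0.0139) and the arrestin ARRB2 by 0.53 (adjusted p = 0.0173). The phosphoinositide kinase subunit PIK3CD fell by 0.85 (adjusted p = 0.00194) and the survival factor MCL1 by 0.48 (adjusted p = 0.0273). The G protein subunit GNAI2 fell by 0.47 (adjusted p = 0.0141) and the kinase SPHK1, which makes sphingosine-1-phosphate, by 0.86 (adjusted p = 0.0369). MCL1 passed in 13 of 18 fits that left out one library and SPHK1 in 9 of 18, so that their lists fell to 1. The other chain of the IL-7 receptor, IL2RG, had 0.10 and -0.20, did not pass, and was chosen after its values were seen.

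The partners of the transcription factors were counted likewise, beside 3.61% of all tested genes lower in Y-P vs Y-A and 8.68% in Y-P vs Y-E. Of 15 tested genes around TCF7 and LEF1 in Wnt signalling, the corepressor TLE4 fell in both comparisons, by 0.51 (edgeR adjusted p = 0.00911) and 0.58 (adjusted p = 0.00165). Against Y-E, 4 fell in all, TLE3 by 0.66 (adjusted p = 0.00406), the kinase GSK3B by 0.43 (adjusted p = 0.0244) and the paralog TCF7L2 by 1.0 (adjusted p = 0.0334), and 1 rose. Without Y-E replicate 2 or Y-P replicate 2 the 4 became 2, and TCF7L2 passed in 12 of 18 fits that left out one library and GSK3B in 14 of 18. Beta-catenin, CTNNB1, chosen after its values were seen, had 0.01 and 0.04.

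Of 11 tested partners and relatives of BACH2, 3 fell and 0 rose in Y-P vs Y-A, and 6 fell and 1 rose in Y-P vs Y-E. Of all tested genes, 3.61% and 8.68% were lower. BCL6, a repressor that acts with BACH2 in lymphocytes and is also expressed by granulocytes, was at 251, 298 and 473 CPM in Y-A, at 313, 563 and 662 in Y-E and at 137, 193 and 236 in Y-P. It fell by 0.78 (edgeR adjusted p = 0.027) and 1.48 (adjusted p = 0.000271). NFE2 fell by 0.71 (edgeR adjusted p = 0.0356) and 1.07 (adjusted p = 0.0016), NCOR1 by 0.33 (adjusted p = 0.0455) and 0.43 (adjusted p = 0.00622), and BACH1 against Y-E by 0.83 (adjusted p = 0.0102). Of 6 relatives of FOXP1, FOXO3 fell against Y-E by 0.69 (adjusted p = 0.0064), and of 7 partners of SATB1 the acetyltransferase KAT2B fell by 0.55 (adjusted p = 0.0412). Leaving out Y-A replicate 5, Y-P replicate 2 or Y-P replicate 4 left 0 of the BACH2 partners lower in Y-P vs Y-A, and leaving out Y-P replicate 5 left 1. NCOR1 passed there in 4 of 18 such fits, and KAT2B against Y-E in 11 of 18. Without Y-E replicate 6, 34 of the 41 list and CD3 genes with the smallest adjusted p in Y-P vs Y-E (up to 4 a list) still passed, and those that did not included ETS1, MCL1, SPHK1 and KAT2B. In Y-E vs Y-A 0 of the 207 tested genes over all lists passed by edgeR, beside 3 of all 14508 tested genes. At an unadjusted p under 0.05 there were 24 of the 207, beside 900 of the 14508. By DESeq2 7 of the 207 had an adjusted p under 0.05, beside 67 of the 14508.

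**Figure D4:**
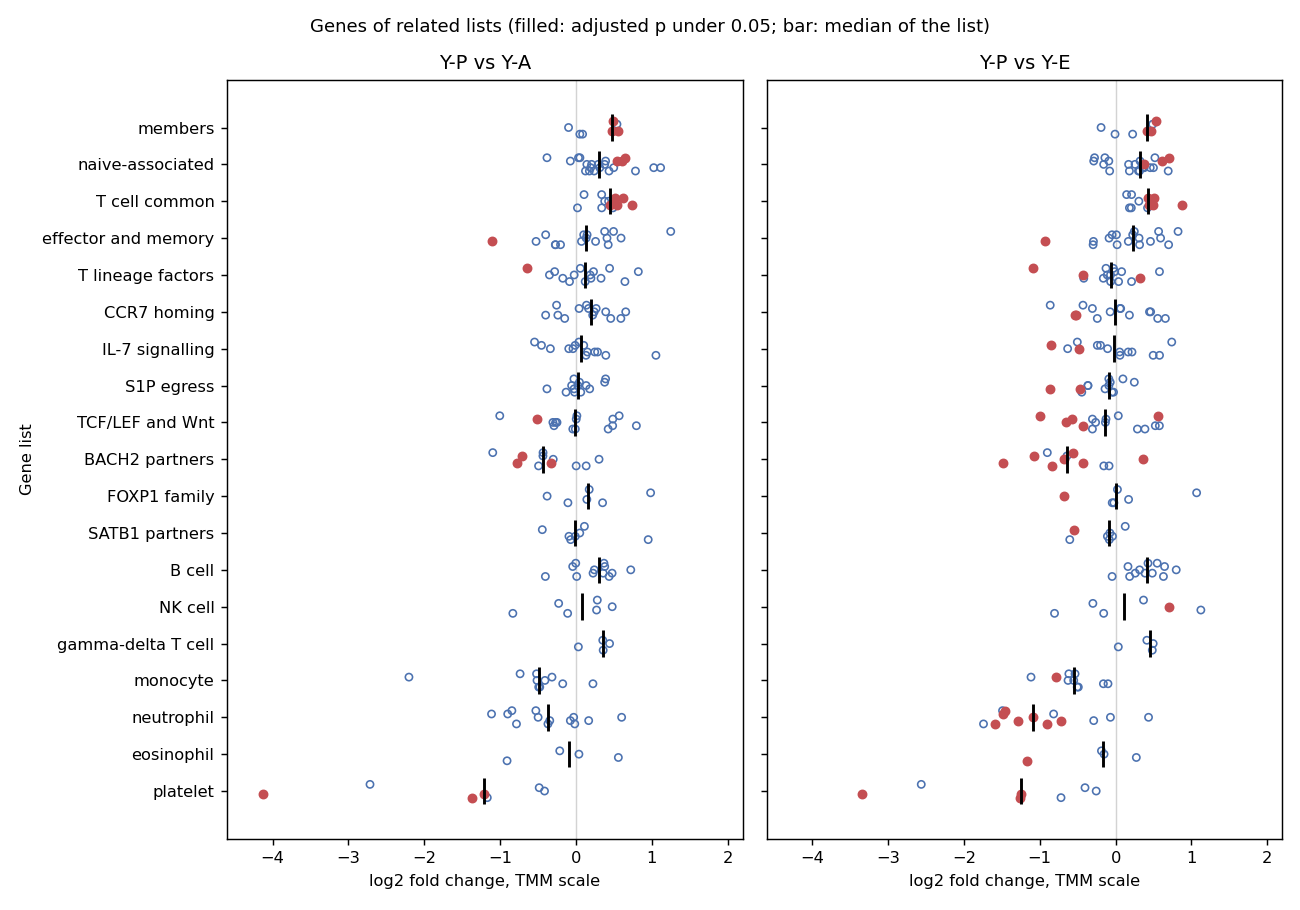
Log2 fold change on the TMM scale (horizontal axis) of each tested gene (1 point a gene) of 19 lists in Y-P vs Y-A and in Y-P vs Y-E, filled in red where the adjusted p was under 0.05, with the list median as a bar. The medians of the 7 genes described here, of the naive-associated list and of the T cell common list lie between 0.30 and 0.47 in both comparisons, and those of the monocyte, neutrophil and platelet lists lie below 0. On the CD3 scale the medians of the 7 genes and of the naive-associated and T cell common lists lie below 0, but above those of all tested genes (-0.52 and -0.54). The reticulocyte list, with a median of -3.83 in Y-P vs Y-A, is not drawn.

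The paralogs were mostly far below the genes described, per length. Mean FPKM in Y-A was 0.217 for TCF7L1 and 1.43 for TCF7L2, against 70.5 for TCF7. FOXP2 was at 0.0397, FOXP3, the factor of regulatory T cells, at 4.08 and FOXP4 at 5.03, against 38.2 for FOXP1. Of the other sphingosine-1-phosphate receptors, S1PR4 was at 75.6 FPKM, near S1PR1, and S1PR2, S1PR3 and S1PR5 were at 1.53, 0.142 and 5.67. BACH1 was the exception, at 52.8 FPKM against 5.84 for BACH2. FOXP3 had log2 fold changes of 0.17 and 0.02 in the comparisons with Y-P and S1PR4 0.13 and -0.36, none passing.

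Markers of other blood cells moved between the stages as well, and 1 of their markers with a row was at 0 in every library of a stage, the neutrophil collagenase MMP8 in Y-P, which reached at most 0.903 CPM in Y-A. The summed level of 11 reticulocyte genes was 691 to 12396 CPM in Y-A, 272 to 5380 in Y-E (272 to 351 without replicate 6) and 180 to 290 in Y-P, and 8 of the 11 fell in Y-P vs Y-A and 4 in Y-P vs Y-E (1 without Y-E replicate 6 or replicate 4 or 5 of Y-P). The first count was 4 without Y-A replicate 6 and 5 without replicate 2, 4 or 5 of Y-P. The 14 neutrophil genes in the table summed to 6874 to 11692 CPM in Y-A, 8644 to 15648 in Y-E and 4889 to 7787 in Y-P, and of 13 tested 7 fell in Y-P vs Y-E, led by CSF3R, the receptor of the granulocyte growth factor, which fell by 1.09 (edgeR adjusted p = 0.000426). The 9 platelet genes summed to 288 to 375 CPM in Y-A, 241 to 398 in Y-E and 156 to 210 in Y-P, and 3 of 7 tested fell in each comparison (6 and 5 without Y-E replicate 1). The 10 monocyte genes summed to 787 to 1399 CPM in Y-A, 729 to 1611 in Y-E and 575 to 1135 in Y-P, and 0 passed against Y-A and 1 against Y-E (up to 3 leaving out one library, as without Y-E replicate 4 or Y-P replicate 6). The 12 B cell genes summed to 925 to 2602 CPM in Y-A, 808 to 2316 in Y-E and 1063 to 2799 in Y-P, and 0 passed in any comparison by edgeR. Of 6 NK cell genes KLRK1 rose by 0.70 against Y-E (adjusted p = 0.0233), of 4 eosinophil genes ADGRE1 fell by 1.16 against Y-E (adjusted p = 0.031, passing in 11 of 18 fits that left out one library), and of 4 gamma-delta T cell genes 0 passed. Beside these counts from all 18 libraries, 3.61% of all tested genes were lower in Y-P vs Y-A and 8.68% in Y-P vs Y-E. The shares that were higher were 2.22% and 5.77%. The part of these other blood cells in the differences of CCR7, IL7R, LEF1, TCF7 and FOXP1 was not tested.

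Over the 18 libraries the genes did not vary as one block. The Pearson correlation of log2 CPM was 0.83 between LEF1 and TCF7, 0.68 between CCR7 and TCF7 and 0.60 between TCF7 and BACH2. IL7R and FOXP1 were at -0.67, and S1PR1 was between -0.17 and 0.15 with each of the other 6. After the stage means were subtracted, LEF1 and TCF7 were at 0.62 and TCF7 and BACH2 at 0.66, while IL7R was at -0.42 with TCF7, -0.47 with BACH2 and -0.54 with FOXP1. LEF1 with CD3G was at 0.82 before and 0.35 after. These values describe 18 libraries that share their cell mix, depth and stage, and carry no test.

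**Figure D5:**
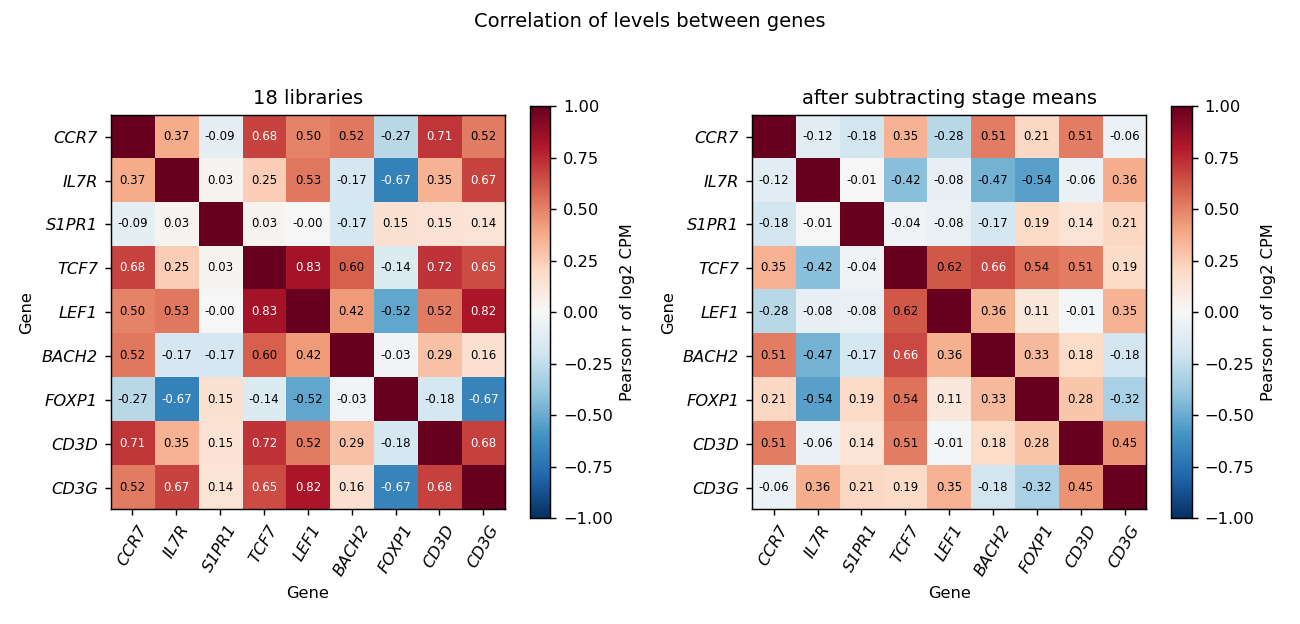
Pearson correlation of log2 CPM between the 7 genes, CD3D and CD3G over the 18 libraries (left) and after subtraction of the stage means (right), from -1 in blue to 1 in red. LEF1 and TCF7 are at 0.83 and 0.62, the row of S1PR1 is pale in both panels, and IL7R, blue against FOXP1 in both panels, turns from 0.25 to -0.42 against TCF7.

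The genes most like each of the 7 over the 18 libraries, by Pearson correlation of log2 CPM, were NQO2 (0.89), C8orf33 (0.88) and SLC35A4 (0.87) for CCR7, XBP1 (0.88), RXYLT1 (0.87) and ALKBH8 (0.85) for IL7R, and PCDH20 (0.76), ARL10 (0.75) and SNORA50A (0.72) for S1PR1. PCDH20 and SNORA50A were scarce, with means of 0.466 and 0.459 CPM in Y-A. For TCF7 they were CD27 (0.88), PDK2 (0.85) and FAM117A (0.84), and for LEF1 the maintenance methyltransferase DNMT1 (0.91), PDK1 (0.91) and ANAPC5 (0.89). For BACH2 they were ADGRG5 (0.88), PIK3C2B (0.86) and ACP6 (0.86), and for FOXP1 COTL1 (0.85), PRKCD (0.85) and ST3GAL3 (0.85). CD27, from the naive-associated list, was the one gene of the lists among these 21. In the GO terms of the table, LEF1, TCF7, BACH2 and FOXP1 shared sequence-specific double-stranded DNA binding with 345 genes in all, and CCR7, IL7R and S1PR1 shared the external side of the plasma membrane with 121.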

How the data were processed

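RNA was sequenced from yak whole blood in 18 libraries, 6 for each of Y-A, Y-E and Y-P, grouped by their labels. Per the labels and the study's methods, reads were trimmed with cutadapt 1.9, aligned with HISAT2 2.2.1 to Bos grunniens v101 and assembled with StringTie 2.1.6. The authors deposited FPKM values per gene and library (scaled to exon length and mapped reads) and whole-number counts that were not normalized, with positions and GO terms. How the counts were made, and whether strand was used, is not given in the sources used here.

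From the counts, edgeR 4.0.16 (R 4.3.3) was run on the 14508 genes kept by filterByExpr (minimum count 10) with TMM factors and stage as the only term over all 18 libraries, with glmQLFit and a two-sided glmQLFTest. P-values were adjusted by Benjamini-Hochberg over all tested genes, and the SE is the log2 fold change over the square root of F. CPM used TMM library sizes. Precision was set by 30247267 to 48401076 counts per library, where 3 counts, the limit that a count of 0 allows, were at most 0.107 CPM, for counting error only. FPKM served for levels between genes. Alternatives were DESeq2 1.42.0, limma 3.58.1 on log2(FPKM + 1) and log2(FPKM + 0.1), other scalings (CD3E, meant for the CD3 scale, is not analysed here), no filter, 2 stages at a time, the replicate number as a block and leaving out each library. Scripts were tested on simulated data.

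The 8 genes and the 19 lists (285 names, 213 with a row, 207 tested) were chosen with earlier results of these data known. Named were all 8 genes, up to 4 passing genes per list and comparison by adjusted p, the 3 genes most correlated with each, the paralogs (1 is not reported here) and the CD3 genes. IL2RG and CTNNB1 were named after their values were seen.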

Additional observations from a re-analysis of the deposited data

How the results depend on the processing

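In Y-E vs Y-A none of the 7 genes passed in any of 30 alternative fits, and in both comparisons with Y-P none reached a log2 fold change of 1. LEF1 passed in both comparisons with Y-P in all fits but those on the CD3 scale, which turned its direction. The cause of the changes below was not tested. Below, genes called over the whole table met an adjusted p under 0.05 and a log2 fold change of at least 1 in either direction. Counts of genes higher or lower and of list genes changed used an adjusted p under 0.05 alone. The labels do not say that equal replicate numbers mark 1 cow. Deviations from the stage means of same-numbered libraries correlated over 0.1 in 5 of 6 pairs of Y-E with Y-A, 3 of 6 of Y-P with Y-A and 3 of 6 of Y-P with Y-E (range -0.041 to 0.434). Libraries of different numbers were not set beside them, so these values cannot decide whether equal numbers mark 1 cow. The main fit left the number out. With the replicate number as a block, IL7R passed in Y-P vs Y-A at 0.56 (edgeR adjusted p = 0.0332) and in Y-P vs Y-E at 0.52 (adjusted p = 0.0245), which made 4 genes higher in each, among 481 and 1047 higher of all 14508 tested, and no other call of the 7 changed. The block without Y-E replicate 6, the CD3 scale without it and the CD3 scale with the block were chosen after seeing the data. The block called 11 genes over the whole table in Y-E vs Y-A (34 without Y-E replicate 6) and changed 2 list genes there (6 without it) and 52 in Y-P vs Y-A (44 without it). In that fit without Y-E replicate 6, CCR7 and IL7R were at -0.032 and -0.070 in Y-E vs Y-A.

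On the CD3 scale the counts of the 7 genes were 0 higher and 2 lower in each comparison with Y-P (with the block 3 lower in Y-P vs Y-A and 2 lower in Y-P vs Y-E, and without Y-E replicate 6 again 0 higher and 2 lower). By the same rule, an adjusted p under 0.05 alone, 38.7% and 39.4% of all tested genes were lower. At the stricter threshold the CD3 scale called 0, 1284 and 1984 genes over the whole table in Y-E vs Y-A, in Y-P vs Y-A and in Y-P vs Y-E (13, 1290 and 1820 without Y-E replicate 6, and 9, 1470 and 2331 with the block). List genes changed were 90 in Y-P vs Y-A and 105 in Y-P vs Y-E (3 in Y-E vs Y-A, 89 and 94 without Y-E replicate 6, and 2, 107 and 122 with the block). The log2 fold changes on the CD3 scale alone, without Y-E replicate 6 and with the block were, in Y-P vs Y-A, -0.10, -0.10 and -0.11 for CCR7, -0.0078, -0.0078 and -0.0062 for IL7R, -0.069, -0.069 and -0.090 for LEF1, -0.041, -0.041 and -0.021 for TCF7, -0.48, -0.48 and -0.51 for S1PR1, and -0.46, -0.46 and -0.45 for BACH2. In Y-P vs Y-E they were -0.19, -0.17 and -0.23 for CCR7, -0.047, -0.031 and -0.074 for LEF1, -0.15, -0.18 and -0.15 for TCF7, and -0.34, -0.41 and -0.33 for BACH2, and IL7R was at -0.11, 0.082 and -0.095. IL7R without Y-E replicate 6 was at -0.090 in Y-E vs Y-A. Of the list genes named as higher, in the same order of settings, CD5 was at -0.085, -0.085 and -0.081 in Y-P vs Y-A and -0.20, -0.22 and -0.20 in Y-P vs Y-E, ZAP70 at -0.094, -0.094 and -0.12, and -0.13, -0.12 and -0.17, and OXNAD1 at -0.034, -0.034 and -0.037 in Y-P vs Y-A and, with the block, -0.0093 in Y-P vs Y-E. SKAP1 was at -0.00019 in Y-P vs Y-A with and without Y-E replicate 6, and -0.15, -0.13 and -0.14 in Y-P vs Y-E, where ETS1 was at -0.25, -0.25 and -0.27 and RCAN3 at -0.19, -0.15 and -0.26.

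FOXP1 turned to 0.065 in Y-P vs Y-A by library size alone, to 0.11 by limma on log2(FPKM + 1) and to 0.11 on log2(FPKM + 0.1), and to 1.6e-05 in Y-P vs Y-E by limma on log2(FPKM + 1). S1PR1 turned in Y-P vs Y-E to 0.14 by library size, and to 0.18 and 0.18 by limma with the larger and smaller pseudocount. With only the 2 stages compared it was at 0.010. With only 2 stages, 1 of the 7 genes was higher in Y-P vs Y-A, beside 108 of 13991 tested genes. DESeq2 called 14 genes in Y-E vs Y-A, and changed 7 list genes there and 45 in Y-P vs Y-A. It put 1 of the 7 genes lower in Y-P vs Y-E, beside 1608 of 14508 tested genes by the same rule. By DESeq2 IL7R passed in Y-P vs Y-A, where 678 of all tested genes were higher. By library size alone and by both limma fits IL7R passed in both comparisons with Y-P. Limma on log2(FPKM + 1) called 128 and 143 genes in Y-P vs Y-A and in Y-P vs Y-E and changed 1 list gene in Y-E vs Y-A and 45 in Y-P vs Y-A. On log2(FPKM + 0.1) it called 343 genes in Y-P vs Y-A and changed 44 list genes.

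Of the list and CD3 genes with the smallest adjusted p (up to 4 a list), 11 of 20 in Y-P vs Y-A and 26 of 41 in Y-P vs Y-E passed in all 18 fits that left out one library. Leaving out one library at a time, 1 to 3 of the 7 genes were higher in Y-P vs Y-A and 1 to 3 in Y-P vs Y-E. By the same rule 135 to 418 and 476 to 952 of all tested genes (14625 to 14680) were higher. Genes called over the whole table ranged from 2 to 18 in Y-E vs Y-A, 110 to 229 in Y-P vs Y-A and 289 to 476 in Y-P vs Y-E, and list genes changed from 0 to 6, 15 to 32 and 35 to 59. In Y-E vs Y-A the log2 fold change ranged from -0.042 to 0.11 for CCR7, -0.12 to 0.14 for IL7R and -0.0029 to 0.12 for S1PR1. BACH2 ranged from -0.021 to 0.20 in Y-P vs Y-A, and S1PR1 from -0.050 to 0.055 in Y-P vs Y-E. Depth limited none of the 7 genes, whose counts were all at least 641.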
